A study of Oryza sativa with 15 samples.

Results

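The loci described here leaned to the mother in rice endosperm while both parental alleles were read. They were chosen by their maternal share, which is the percentage of allele-specific reads that carry the mother's allele. A locus had to have at least 100 reads in each of the crosses LR, RL and WY, and a share from 75% up to but under 90.9% in all of them. Of 7301 loci with enough reads, 23 met the rule, which is 0.315%. Within these bounds in both LR and RL were 33 loci, or 0.452%, of which 10 fell under 75% in WY and 0 over the upper bound. The shares in LR, RL and WY therefore describe the choice and test nothing, while the cross YW was not used in it.

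RNA was taken from endosperm 5 days after fertilization, with 20 to 30 endosperms pooled in each library. LR joins the japonica mother Liuqianxin-A to the indica father Rongfeng-B (3 libraries), and RL joins the indica mother Rongfeng-A to the japonica father Liuqianxin-B (3 libraries). YW joins the japonica mother Yu6-A to the indica father Wufeng-B (2 libraries), and WY joins the indica mother Wufeng-A to the japonica father Yu6-B (2 libraries). Each mother was an A line, made male sterile by its cytoplasm, and each father a fertile maintainer, or B line. The inbred control libraries have no allele counts and were not used here. The endosperm was drawn out with a pipette to keep maternal tissue away, from plants grown in a paddy field and moved to a growth chamber. The tables hold 1 maternal and 1 paternal count for each cross and SNP, pooled over its libraries, so every interval below is a Wilson 95% interval that covers counting error only, and no spread between replicates can be given.

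Endosperm inherits a double maternal dose of each chromosome and a single paternal one, so a gene read equally from every copy has a maternal share of 66.7%. An imprinted gene departs from this dosage according to the parent that gave the allele, in both directions of a reciprocal cross. In flowering plants, maternally expressed genes often owe their state to DNA demethylation in the central cell. At some of them Polycomb silencing of the other allele takes part. Imprinting need not be complete, and a gene may keep a reduced output from the weaker allele.

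At the shallowest of LR, RL and WY the loci had 196 to 22755 reads, with a median of 966. Their median share was 85.0% in LR, 83.1% in RL and 81.8% in WY, beside 67.1%, 64.0% and 63.5% over the 7301 loci. In YW their median was 85.7%, with a range from 73.2% to 96.0%, beside 74.8% over the 7301 loci. For scale, 57 loci were at or above 90.9% in all of LR, RL and WY, and their median share in YW was 99.4%. In YW, where the share had not been chosen, the median of the 23 loci thus lay between those of all loci and of the almost wholly maternal ones.

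**Figure D1:**
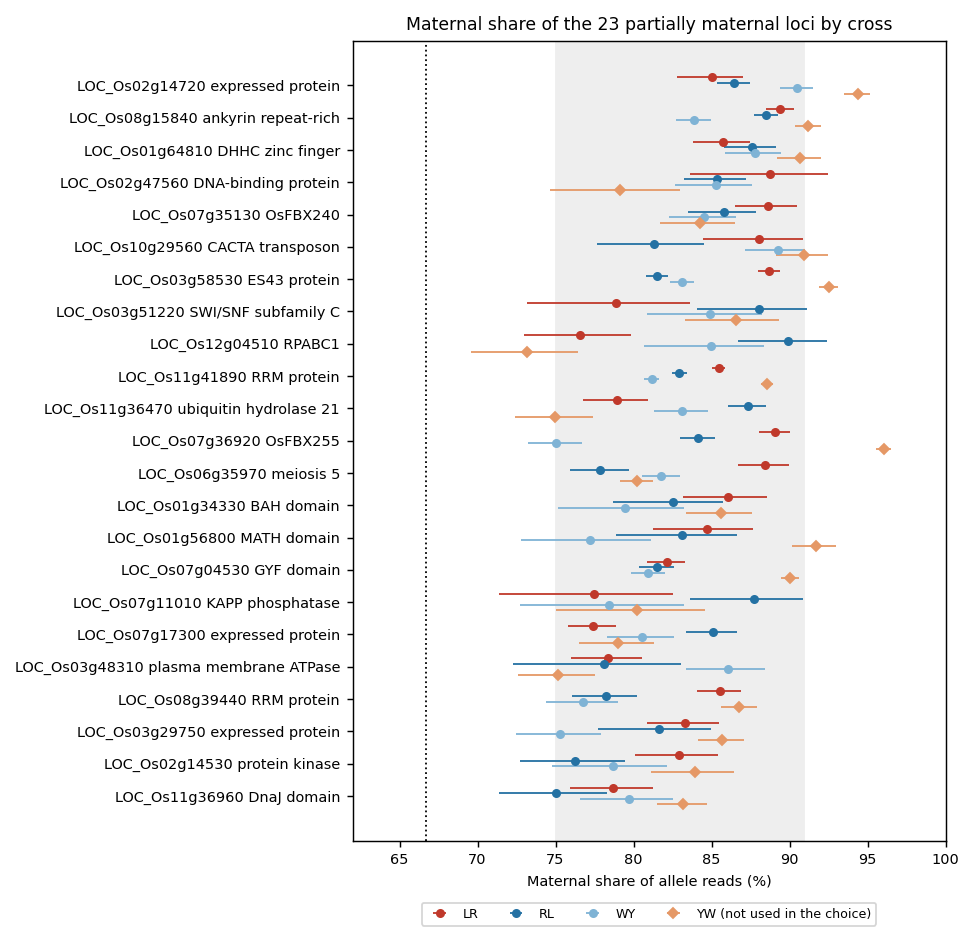
Maternal share (percent of allele reads) of each of the 23 loci in LR, RL, WY and YW, with Wilson 95% intervals. The grey band marks the bounds of the choice and the dotted line the dosage of 66.7%; the YW points run from 73.2% to 96.0%, and 6 of them lie above the band and 2 below it.

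The bounds cut through a continuous range at the lower end. Just inside stood the F-box gene OsFBX255 (LOC_Os07g36920), with 75% in WY, the DnaJ gene LOC_Os11g36960, with 75% in RL, and LOC_Os03g29750, with 75.3% in WY. Just outside stood the phosphomannomutase gene LOC_Os04g58580 with 74.7% in WY and the zinc finger genes LOC_Os11g28270 with 73.9% in WY and LOC_Os01g24880 with 73.7% in LR. At the upper bound, LOC_Os02g14720 reached 90.5% in WY, the polymerase subunit gene LOC_Os12g04510 reached 89.9% in RL, and the ankyrin gene LOC_Os08g15840 reached 89.4% in LR. The nearest excluded loci were LOC_Os04g08034 (91.7% in LR), annotated as a C2H2 zinc finger protein, the PWWP domain gene LOC_Os05g05660 (91.8% in LR) and the ACT domain gene LOC_Os02g34990 (92.7% in WY).

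Genes of chromatin and DNA binding made up one group. LOC_Os01g34330 (chromosome 1, SNPs from 18923798 to 18938880) encodes a protein with a BAH domain, a fold found in chromatin proteins. It was 86.1% maternal in LR and 82.5% in RL, 79.5% in WY and 85.6% in YW. LOC_Os03g51220 (chromosome 3, 29298026 to 29301529) is annotated as a subfamily C member of SWI/SNF, a chromatin remodelling complex that moves nucleosomes. Its shares were 78.9% in LR and 88.0% in RL, 84.9% in WY and 86.6% in YW, so RL was above LR while YW was above WY. The gene of the ES43 protein, LOC_Os03g58530 (chromosome 3, 33330950 to 33332953), had 8161 reads in LR and 11714 in RL. Its share was 88.7% in LR (88.0 to 89.4), against 81.5% in RL (80.8 to 82.2), 83.1% in WY and 92.5% in YW (91.9 to 93.1). LOC_Os02g47560 (chromosome 2, 29059852 to 29062395), annotated as a DNA-binding protein, had 88.8% in LR and 85.3% in RL, 85.3% in WY and 79.1% in YW, its lowest value.

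Genes of RNA binding and transcription included the locus with the most reads of the 23. LOC_Os11g41890 (chromosome 11, 25193053 to 25196809) encodes a protein with an RNA recognition motif, the commonest fold that binds single-stranded RNA. With 29251 reads in LR and 28535 in YW, it was 85.5% maternal in LR (85.1 to 85.9), against 82.9% in RL (82.4 to 83.4), 81.2% in WY and 88.6% in YW (88.2 to 88.9). The intervals of LR, RL and YW did not overlap, yet its 4 shares stayed within 7.39 points. A further gene with this motif, LOC_Os08g39440 (chromosome 8, 24941809 to 24946419), was 85.5% maternal in LR and 78.2% in RL, 76.8% in WY and 86.8% in YW, so both japonica mothers gave the higher share. LOC_Os12g04510 (chromosome 12, 1920176 to 1920624) encodes RPABC1, a subunit common to nuclear RNA polymerases I, II and III. Its shares of 76.6% in LR and 89.9% in RL, 84.9% in WY and 73.2% in YW were higher from both indica mothers. Identically annotated genes lie on chromosomes 4 and 11 (LOC_Os04g41040 and LOC_Os11g04730), so the locus is uncertain as to how reads of near-identical copies were assigned, which was not tested. None of its SNP positions is assigned to a further locus in the tables.

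Genes of protein turnover and folding numbered 5. OsFBX240 (LOC_Os07g35130, chromosome 7, 21041574 to 21043028) and OsFBX255 (LOC_Os07g36920, chromosome 7, 22107957 to 22109887) encode F-box proteins, which choose the targets of ubiquitin ligases. OsFBX240 was 88.6% maternal in LR and 85.8% in RL, 84.5% in WY and 84.2% in YW, a spread of 4.41 points over the crosses and the narrowest of the 23. OsFBX255 had the widest spread, 21.04 points, with 89.1% in LR and 84.1% in RL, 75% in WY and 96.0% in YW (95.5 to 96.5). LOC_Os01g56800 (chromosome 1, 32774691 to 32784289) carries a MATH domain, which binds substrates in some ubiquitin ligase adaptors. It was 84.7% maternal in LR and 83.1% in RL, 77.2% in WY and 91.7% in YW. The gene of ubiquitin carboxyl-terminal hydrolase 21, LOC_Os11g36470 (chromosome 11, 21500647 to 21508800), whose family removes ubiquitin from proteins, had 78.9% in LR and 87.3% in RL, 83.1% in WY and 74.98% in YW. LOC_Os11g36960 (chromosome 11, 21806138 to 21809413) encodes a DnaJ protein, a partner of Hsp70 chaperones, and had 78.7% in LR and 75% in RL, 79.7% in WY and 83.1% in YW. YW was above all the other crosses at OsFBX255 and at the MATH and DnaJ genes, and below all of them at OsFBX240 and the ubiquitin hydrolase gene.

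Signalling, membrane and adaptor proteins formed a further group. The protein kinase gene LOC_Os02g14530 (chromosome 2, 8007808 to 8014154) was 82.9% maternal in LR and 76.2% in RL, 78.7% in WY and 84.0% in YW. LOC_Os07g11010 (chromosome 7, 6059766 to 6060009) is annotated as the kinase-associated protein phosphatase, which in Arabidopsis binds receptor-like kinases. With 213 to 317 reads per cross, it had 77.5% in LR (71.4 to 82.6), against 87.7% in RL (83.6 to 90.9), 78.4% in WY and 80.2% in YW (75.04 to 84.6). Its SNPs C6059766T and C6060009T differed, with 73.4% and 89.1% in LR and with 83.0% and 65.9% in YW, where the second had 44 reads. LOC_Os01g64810 (chromosome 1, 37617138 to 37622047) carries the DHHC zinc finger of enzymes that attach palmitate to proteins. Its shares were close together, at 85.7% in LR and 87.6% in RL, 87.8% in WY and 90.7% in YW. The plasma membrane ATPase gene LOC_Os03g48310 (chromosome 3, 27513375 to 27515811), of the proton pumps that energise transport across the cell membrane, had 78.4% in LR and 78.1% in RL, 86.1% in WY and 75.2% in YW. LOC_Os07g04530 (chromosome 7, 1996774 to 2005930), with a GYF domain that binds proline-rich peptides, was the steadiest in the crosses of the choice, at 82.1% in LR, 81.5% in RL and 81.0% in WY. In YW it stood above that range, at 90.0% (89.4 to 90.6). The ankyrin repeat-rich gene LOC_Os08g15840 (chromosome 8, 9628655 to 9632644), whose repeats bind other proteins, had 89.4% in LR and 88.5% in RL, 83.9% in WY and 91.2% in YW.

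The remaining loci were a transposon, a gene named meiosis 5 and genes of unknown product. LOC_Os10g29560 (chromosome 10, 15360937 to 15367076), a CACTA transposon of the En/Spm class, which moves by excision and insertion of DNA, had 88.0% in LR and 81.3% in RL, 89.2% in WY and 90.9% in YW. LOC_Os06g35970 (chromosome 6, 21006876 to 21008159), annotated as meiosis 5, had 88.4% in LR and 77.9% in RL, 81.8% in WY and 80.2% in YW. Of the loci annotated as expressed proteins, LOC_Os02g14720 (chromosome 2, 8115199 to 8121225) was the most maternal, with 85.0% in LR and 86.4% in RL, 90.5% in WY and 94.4% in YW (93.5 to 95.2). LOC_Os03g29750 (chromosome 3, 16951007 to 16954242) had 83.3% in LR and 81.6% in RL, 75.3% in WY and 85.7% in YW. LOC_Os07g17300 (chromosome 7, 10218289 to 10220532) had 77.4% in LR and 85.1% in RL, 80.5% in WY and 79.0% in YW. Chromosome coordinates are those of the outermost SNPs in the deposited tables, and no source used here names their genome build.

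The cross left out of the choice allowed a test of each locus. Against the dosage of 66.7%, all 23 loci had a maternal call in YW (exact two-sided binomial test, adjusted p under 0.05 by the Benjamini-Hochberg method over 11933 loci), but so had 62.1% of all loci tested. The median locus of YW itself lay at 75.1%, so the dosage is a weak yardstick in this cross. Against that median in place of the dosage, 18 of the 23 loci had a maternal call, beside 28.3% of all loci. The shares of all loci include loci with as few as 20 reads in YW, while each of the 23 had at least 268. Deeper loci reach a call more easily. At a minimum of 100 reads in YW, 69.3% of loci had a call against the dosage. No such share was taken against the median. A share of at least 75% in YW was met by 21 of the 23, beside 48.8% of the 7301 loci, and 15 stayed within the bounds of the choice, beside 42.4%. These tests compare the reads of the pooled YW libraries and cannot generalise over plants.

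**Figure D2:**
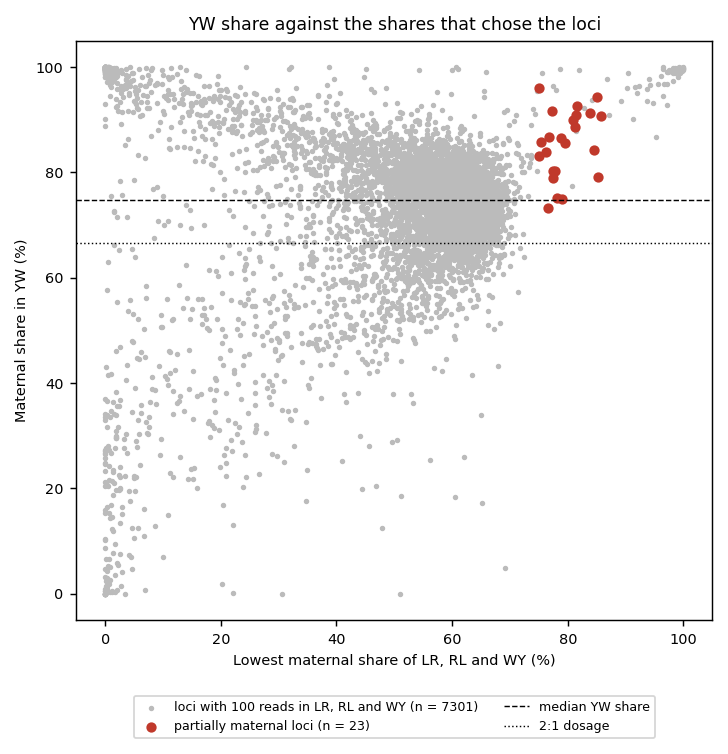
Maternal share in YW (percent, vertical axis) against the lowest share of LR, RL and WY (percent, horizontal axis) for 7301 loci in grey and the 23 chosen loci in red. The dashed line is the median YW share of 74.8% and the dotted line 66.7%; 22 of the red points lie above the dashed line.

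The 6 loci above 90.9% in YW were OsFBX255, LOC_Os02g14720, the ES43 gene, the MATH gene, the ankyrin gene and the CACTA transposon. At the MATH gene the 1389 maternal and 126 paternal reads gave an adjusted p of 5.54e-61 against the YW median (exact binomial test). The 2 loci under 75% were RPABC1, at 73.2% (69.6 to 76.5, adjusted p = 0.363, exact binomial test), and the ubiquitin hydrolase gene, at 74.98% (72.4 to 77.4, adjusted p = 0.951). The other loci with no call against the YW median were the plasma membrane ATPase gene (75.2%, adjusted p = 1 in the exact binomial test), the DNA-binding gene LOC_Os02g47560 (79.1%, adjusted p = 0.124) and the phosphatase gene LOC_Os07g11010 (80.2%, adjusted p = 0.0920). The last pair had 364 and 268 reads in YW, and their intervals of 74.7 to 83.0 and 75.04 to 84.6 reached down to the YW median, so a difference from it was not detectable at this depth. YW lay above all of LR, RL and WY at 13 of the 23 loci, beside 68.6% of the 7301 loci, and below all of them at 5, beside 3.33%. The choice held LR, RL and WY from 75% to under 90.9% at the 23 loci but not at the 7301, and left YW free. Such bounds can change how often YW is the highest or the lowest, so these counts test nothing.

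The reciprocal crosses put each strain on both sides. The japonica mother gave the higher share in LR against RL at 16 of the 23 loci, beside 59.6% of the 7301 loci, and in YW against WY at 16, beside 81%. Both sets leaned to the japonica mother at 12 loci, beside 56.8% of the 7301 loci, and to the indica mother at 3, beside 16.1%, so neither count stood far from the share over all loci. The 3 loci were RPABC1, the ubiquitin hydrolase gene and LOC_Os07g17300. At the remaining 8 loci the sets differed in sign. At RPABC1 the difference of LR minus RL was -13.3 points and that of YW minus WY -11.8 points. The shares of LR and RL were within 5 points of each other at 13 loci, and they are part of the choice, which bounds how far they can differ.

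Single SNPs show whether a partial share runs through a whole transcript. The loci held 177 SNPs in the table of LR and RL and 175 in that of YW and WY, of which 171 were the same position and alleles. In YW, 163 of 173 SNPs with at least 20 reads were above 66.7%, beside 78.9% of the SNPs of all 7301 loci. Above the 74.8% of the median YW locus stood 153 of them, which is 88.4%, against 54.5% of all such SNPs. In the crosses of the choice, SNPs above 66.7% numbered 156 of 161 in LR (54.7% over all loci), 168 of 174 in RL (37.2%) and 159 of 170 in WY (37.5%). The reads at these SNPs are those that chose the loci, so the counts describe the choice and test nothing. SNPs a few bases apart share reads, so they are not independent of each other. The reference allele was that of Rongfeng at 23 of the 177 SNPs, which lie in the ankyrin gene (18) and OsFBX240 (5), and all 23 were above 66.7% in both LR and RL. Both crosses were part of the choice, so this count describes it, and an effect of the reference allele was not tested.

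At 12 of the 23 loci every SNP with at least 20 reads was above 66.7% in all 4 crosses. LR, RL and WY had chosen these loci, and no like count was taken over all loci. The GYF gene LOC_Os07g04530 had 18 SNPs of this depth in YW, between 87.9% and 94.2%, and 18 in WY, between 75.1% and 85.7%. The ES43 gene was the most even, with SNPs from 88.0% to 89.3% in LR, 80.7% to 82.1% in RL, 83.0% to 83.2% in WY and 91.5% to 93.1% in YW. At the deep gene LOC_Os11g41890 the 14 SNPs ran from 72.8% to 88.1% in LR, 79.0% to 95.3% in RL, 73.5% to 92.3% in WY and 83.9% to 92.1% in YW. The DHHC gene had its 7 SNPs between 83.2% and 89.1% in LR and between 78.8% and 93.1% in YW. The motif gene LOC_Os08g39440 ran from 82.8% to 90.1% in YW but from 67.1% to 84.6% in WY and 70.3% to 82.9% in RL. The SWI/SNF gene ran from 84.6% to 88.5% in YW and from 67.4% to 85% in LR, so single SNPs of both genes came close to 66.7%. The other loci of this kind were OsFBX240, OsFBX255, the kinase gene LOC_Os02g14530, LOC_Os02g14720, LOC_Os03g29750 and the plasma membrane ATPase gene. The kinase and ATPase genes had 2 SNPs each, and LOC_Os03g29750 and the ES43 gene 3 each, so they show little of the transcript. Among loci with at least 3 such SNPs, the median range of SNP shares in YW was 12.1 points at the 20 chosen loci and 13.6 points at 5549 loci.

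**Figure D3:**
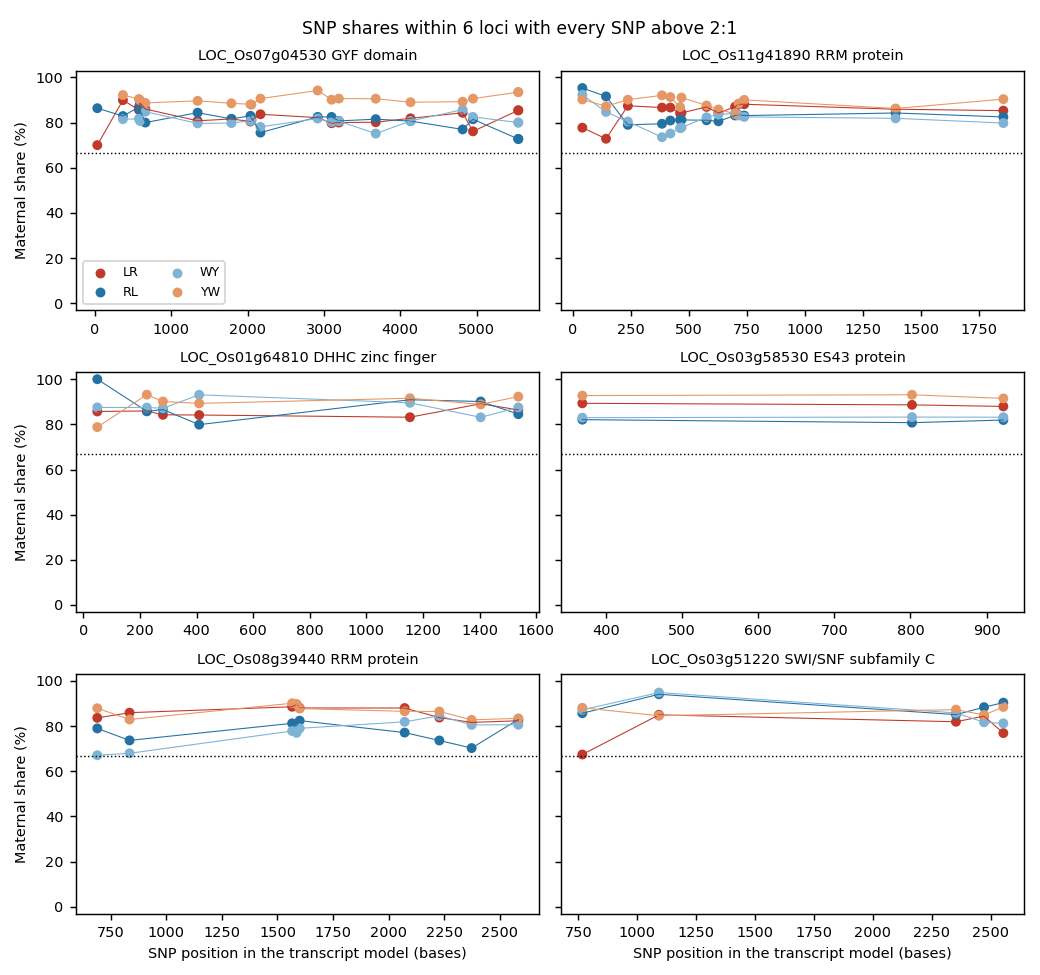
Maternal share of each SNP (percent) by its position in the transcript model (bases) in 6 loci, coloured by cross; small points have fewer than 20 reads and the dotted line marks 66.7%. Every SNP with at least 20 reads lies above the line, as for the ES43 gene, whose SNPs span 91.5% to 93.1% in YW.

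At the other 11 loci some SNP with at least 20 reads was at or under 66.7% in at least 1 cross, and in several of them the locus share mixed unlike stretches. The SNPs that carry these differences are given as the reference base, the chromosome position and the other base, and were picked after their values were seen. At the CACTA transposon LOC_Os10g29560, the first SNP of the transcript, C15360937A, was 50% maternal in LR and 9.78% in RL, 25.3% in WY and 66.3% in YW. The 6 SNPs downstream, from 15362732 to 15367076, together had 94.6% in LR and 97.8% in RL, 95% in WY and 93.1% in YW. G15367038A among them has counts in WY and YW only. Without C15360937A the transposon would have lain above the upper bound in LR, RL and WY.

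The ubiquitin hydrolase gene LOC_Os11g36470 had one SNP that leaned to the father. A21508800G had 2 maternal reads of 47 in LR (4.26%), 12 of 62 in RL (19.4%), 13 of 59 in WY (22.03%) and 38 of 91 in YW (41.8%). Its 6 other SNPs, from 21500647 to 21504517, together had 81.4% in LR and 88.9% in RL, 85.2% in WY and 77.8% in YW. Within one annotated transcript, the reads were therefore mostly paternal at one position and mostly maternal at the rest.

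The BAH gene LOC_Os01g34330 had a maternal stretch and one with more paternal reads. The 4 SNPs at transcript positions 193 to 1546 had 90.6% in LR and 85.6% in RL, 82.9% in WY and 87.9% in YW. The 3 SNPs at positions 1717 to 2020, 10.6 kb away on the chromosome, had 50% in LR and 66.7% in RL, 51.2% in WY and 51.5% in YW, on 70, 72, 41 and 66 reads, and C18938577G among them has a row in the table of LR and RL only. The first stretch held 555 of the 625 reads of the locus in LR, so it sets the locus share.

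Wholly maternal reads at the low-numbered end of the transcript marked a further pair of genes. At the MATH gene LOC_Os01g56800 the SNPs A32784289G, T32784146C and T32784099C had 0 paternal reads of 56 in LR, 0 of 71 in RL and 0 of 30 in WY, which allow paternal shares of up to 5.36%, 4.23% and 10.0%, and 1 of 156 in YW. A32784289G has a row in the table of LR and RL only, so the counts of WY and YW come from the other pair of SNPs. Its 7 other SNPs had 82.7% in LR and 78.9% in RL, 75.3% in WY and 90.8% in YW. At the ankyrin gene LOC_Os08g15840 the SNP A9632644T had 0 paternal reads of 113 in LR and 210 in RL, of 127 in WY and 95 in YW, which allow up to 2.65%, 1.43%, 2.36% and 3.16%. The next SNP, C9632620A, 0.024 kb away, was 100% maternal in LR and YW but 86.1% in RL and 83.1% in WY. The 19 SNPs other than A9632644T together had 89.1% in LR and 88.1% in RL, 83.4% in WY and 91.0% in YW. At the far end of the gene the 4 SNPs from T9628769C to A9628655C had 61.0% to 66.7% in WY and 93.5% to 95.7% in YW. At RPABC1 the first SNP, A1920624G, was 99.4% maternal in LR, 100% in RL and WY and 93.8% in YW. T1920428C was 50.7% in LR and 49.6% in YW, but 87.1% in RL and 100% in WY, where it had 14 reads. Without the first SNP, RPABC1 had 67.8% in LR and 68.8% in YW, but 86.2% in RL and 80.2% in WY.

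**Figure D4:**
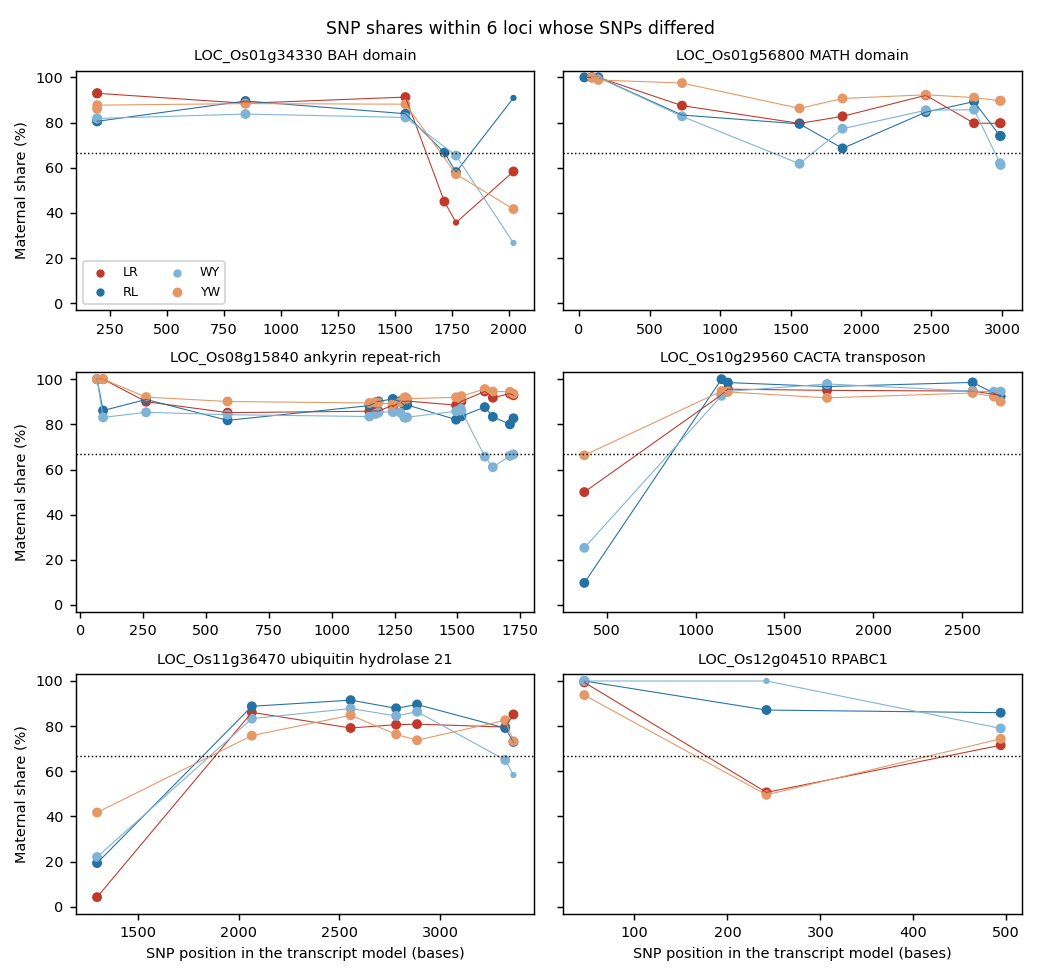
Maternal share of each SNP (percent) by its position in the transcript model (bases) in 6 loci whose SNPs differed, coloured by cross; small points have fewer than 20 reads and the dotted line marks 66.7%. The first SNP of the CACTA transposon lies at 9.78% to 66.3% and its other SNPs above 90%, and the SNPs at the left end of the MATH and ankyrin genes reach 100%.

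LOC_Os07g17300 changed along its length in YW in another way. Its SNPs C10220532G, T10220499G and A10220485G had 69.8%, 66.2% and 64.9% in YW, while the next 6 SNPs had 85.7% to 91.1% and the last pair, G10218491A and G10218289A, 76.5% and 70.8%. The first 3 SNPs had 70.7%, 72.5% and 74.5% in LR but 86.7%, 88.2% and 88.7% in RL, and 83.8%, 82.7% and 81.9% in WY, so that stretch was lower from both japonica mothers. At the meiosis 5 gene, C21007991A was 95.1% maternal in LR and 68.8% in RL. With any single SNP left out, 13 of the 23 loci remained within the bounds in LR, RL and WY.

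The partially maternal loci were scattered over the chromosomes. They lay on 9 chromosomes, with 5 of 605 loci with enough reads on chromosome 7, 4 of 1063 on chromosome 3, and none of 564, 549 and 305 on chromosomes 4, 5 and 9. Of the 46 nearest loci on either side of them, 0 had 75% or more in LR, RL and WY together, beside 95 of all 7301 loci. Such shares are rare everywhere, so this count does not set the neighbours apart. The medians of these flanking loci were 67.1% in LR and 63.5% in RL, 63.7% in WY and 73.5% in YW, near those of all loci. The kinase gene LOC_Os02g14530 and LOC_Os02g14720, 101 kb apart, were the one pair within 200 kb. Between them lay a glutelin gene, LOC_Os02g14600, a seed storage protein gene with 65.1% in LR, 63.1% in RL and 64.5% in WY, and the glucosyltransferase gene LOC_Os02g14630, with 48.3%, 73.1% and 80.5%. On chromosome 11 the ubiquitin hydrolase and DnaJ genes, 297 kb apart, flanked LOC_Os11g36760, a putative transmembrane receptor gene with 99.6% in LR, 100% in RL and 97.7% in WY.

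**Figure D5:**
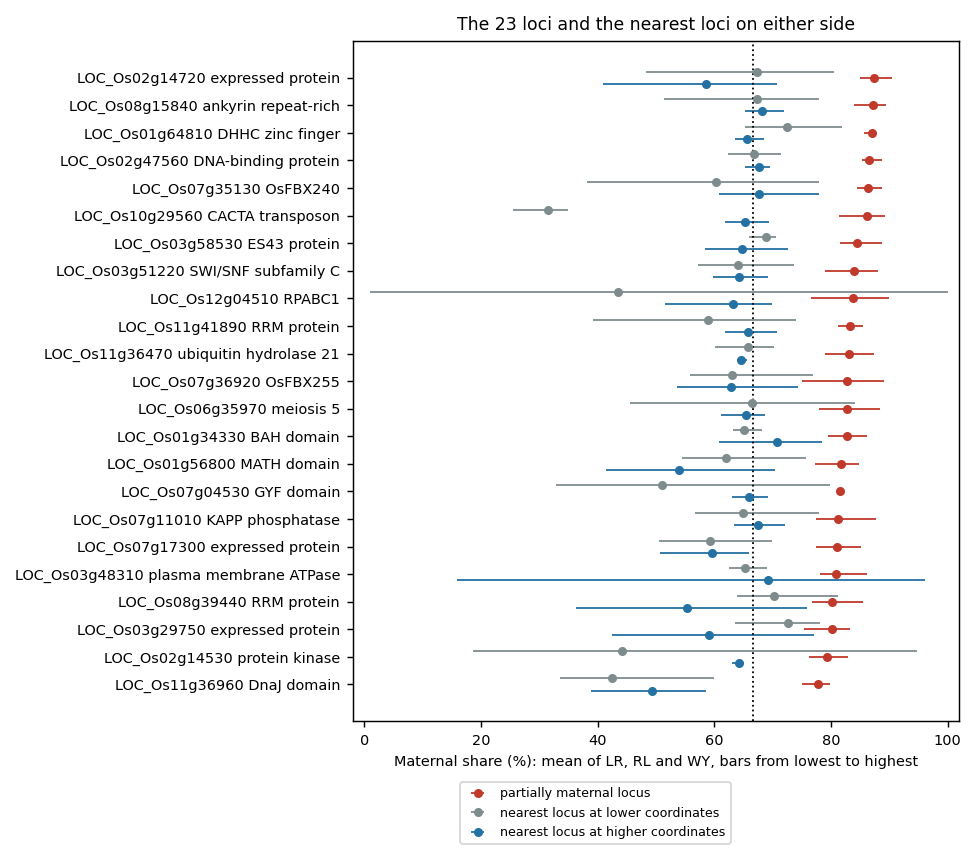
Mean maternal share of LR, RL and WY (percent) of the 23 loci in red and of the nearest locus at lower (grey) and higher (blue) coordinates, with bars from the lowest to the highest of these crosses. The dotted line marks 66.7%. Of the 46 flanking loci, 0 had 75% or more in LR, RL and WY together, beside 95 of all 7301 loci.

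By the words of their annotation, 15 of the 23 loci fell into at least 1 of the function classes and 8 into none. Ubiquitin and proteasome genes gave 3 members of 368 loci with enough reads, protein kinases and phosphatases 2 of 411, and RNA binding and processing 2 of 240. Chromatin gave 1 of 96, transcription factors 1 of 403 (the DHHC gene, by the words zinc finger), transporters 1 of 218, protein folding 1 of 114 and transposons 1 of 165. The cytoskeleton class held the SWI/SNF gene by the word actin. Storage and lipid transfer (49 loci), starch and sugar (85), cell wall (98), hormone (57), translation (254), redox (252), membrane trafficking (100) and proteolysis (113) gave 0. Unannotated proteins gave 3 of 1457, which is 13.04% of the 23 loci against 20.0% of all loci. At this number of loci each class share is a count of a few genes.

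Markers of maternal tissue were read beside these values. Of 4 markers of nucellus and ovule, OsSWEET11 and OsSWEET15 had SNPs in the tables, with a summed level of 14.1 to 36.2 RPM over the crosses, where RPM scales allele reads to the same total in each cross, while OsMADS29 and OsMADS13 have no value here. OsSWEET11, a sugar transporter known from the nucellus, was 100% maternal in LR and RL, 99.1% in WY and 99.9% in YW, and OsSWEET15 was 74.4%, 69.2%, 77.1% and 81.1%. The photosynthesis genes of green pericarp had 5 of 7 loci in LR and RL and 6 of 7 in WY and YW, with medians of 62.1% in LR and 71.1% in RL, 68.3% in WY and 77.2% in YW, and a summed level of 49.3 to 187 RPM. Both summed levels were highest in YW. A single photosynthesis locus, LOC_Os12g17600, gave 138 of the 187 RPM in YW. Its share was 46.7% in LR and 78.3% in RL, 69.4% in WY and 50.3% in YW. The list of endosperm genes had values for 5 in LR and RL and for 4 in WY and YW, where Wx has none. Their medians were 69.3% in LR and 74.9% in RL, 65.7% in WY and 86.2% in YW. Single genes ran from 12.2% (Wx in LR) to 99.7% (OsFIE1 in LR). Among them RPBF had 89.4% in LR and 74.9% in RL, 38.8% in WY and 94.6% in YW, and OsNF-YB1 64.2% to 70.5% over the crosses. Of 26 glutelin and prolamin loci, 23 had values in LR and RL and 21 in WY and YW. Their medians were 66.5% in LR and 70.6% in RL, 72.7% in WY and 76.0% in YW. The aleurone list, with values for 2 genes in LR and RL and 3 in WY and YW, had medians of 61.0%, 71.2%, 75.4% and 64.2%. The embryo marker OSH1 has no value here. None of the 23 loci is on these lists, and the part of maternal tissue in their shares was not tested.

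Total allele reads of the loci differed between crosses in both directions. Between LR and RL, 4 of the 23 loci differed by more than 2-fold in RPM, beside 20.5% of all loci, and between YW and WY 8 did, beside 19.5%. The log2 ratio of LR to RL was 2.70 at the plasma membrane ATPase gene and 1.40 at LOC_Os03g29750, and -2.39 at the DNA-binding gene LOC_Os02g47560 and -1.71 at LOC_Os02g14720. At the ATPase gene the share was nonetheless 78.4% in LR and 78.1% in RL. The log2 ratio of YW to WY was largest at the MATH gene, at 2.0. With pooled counts these ratios have no test.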

How the data were processed

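Per the file headers, the authors deposited read counts of the maternal and the paternal allele at each SNP, with 1 column of each per cross, so the 10 hybrid libraries are pooled within their cross. Tools listed without an order in the submitters' processing notes are GATK 3.5, SAMtools 0.1.16, Bowtie2 2.2.1 and Trimmomatic 0.32. No source used here names the genome build. The 62102 SNPs of LR and RL and 59107 of YW and WY each have at least 11 reads in every cross of their table. Summed over SNPs, allele reads came to 29714227 in LR and 34433249 in RL, 29302004 in WY and 29149713 in YW. Counts were summed per locus, so a read over several SNPs is counted at each.

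YW was tested by an exact two-sided binomial test per locus with at least 20 reads (SciPy 1.17.1, Benjamini-Hochberg adjustment), since a model over replicates could not be fitted to pooled counts; the test was checked on simulated data. Intervals and the limit that a count of 0 allows (3 counts) cover counting error only. PCR copies and shared reads can make them too narrow. Alternatives changed the null, the SNPs, the read minimum and the bounds. All 23 loci are named; other named loci were the 3 nearest to each bound, the neighbours and the markers. The members, lists and tests were chosen with earlier results of these data known.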

Additional observations from a re-analysis of the deposited data

How the results depend on the processing

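The number of loci that met the rule was 23. With the SNP with most reads of each locus alone it was 15, of which 10 were among the 23, and with YW required in addition to WY it was 15. The other settings gave 19 to 30 loci: 22 with the unweighted mean of SNP shares (18 shared), 30 and 19 with minimums of 30 and 300 reads, 25 with bounds shifted by the median of each cross (21 shared), 23 with YW in place of WY (15 shared) and 23 with at least 2 SNPs. Maternal calls in YW numbered 23 of 23 against 2:1, 18 against the YW median, 21 with the SNP with most reads, 23 with no read minimum and 23 at a minimum of 100. Of all loci tested, 62.1%, 28.3%, 52.3%, 60.7% and 69.3% had such a call, in the same order. Against the YW median the shares of LOC_Os12g04510 (73.2%) and LOC_Os11g36470 (74.98%) fell on the paternal side, by the construction of that null. LOC_Os02g47560 (72.1%) and LOC_Os07g17300 (69.8%) lost their call with the SNP with most reads. The median YW share of the loci stayed between 84.8% and 87.7% under 6 alternatives, 2 of them chosen after seeing the data. SNPs above 2:1 in YW made up 94.2% at 20 reads, 96.7% at 50 reads and 94.3% at 11 reads. Over all loci with enough reads these shares were 78.9%, 81.8% and 78.2%. No paired analysis was possible because the replicates of each cross are pooled in 1 column per allele; for the same reason neither leaving out replicates nor edgeR or DESeq2 was run. At 268 reads in YW, LOC_Os07g11010 has an interval of 75.04% to 84.6%, and its SNPs differ by more than that, at 83.0% and 65.9%.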

Other observations

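A further 10 loci were within the bounds in LR and RL but under 75% in WY, and were looked up after the values were known. The MYB gene LOC_Os07g02800 had 83.8% in LR and 81.6% in RL, 73.7% in WY and 89.0% in YW. The bZIP gene LOC_Os01g64000 had 85.4%, 77.1%, 65.0% and 83.0%, and the EDR2 gene LOC_Os06g48320 had 79.4%, 81.2%, 69.8% and 89.0%. The prolamin gene PROLM24 (LOC_Os06g31070), of a family of seed storage proteins, stood apart with 88.0%, 83.0%, 54.3% and 99.4%. The share in YW was at least 75% at 8 of the 10, beside 48.8% of the 7301 loci.

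For 8 annotations of chosen loci, 11 other loci with the same words and enough reads were read beside them. Of the 11, 1 had 75% or more in LR, RL and WY, beside 95 of all 7301 loci. That one was the second ES43 gene, LOC_Os07g08880 (chromosome 7), which had 92.2% in LR and 92.0% in RL, 92.1% in WY and 95.1% in YW, just above the upper bound. The second GYF gene, LOC_Os01g69990, had 62.7%, 67.9%, 68.1% and 71.4%. Of the RPABC1 genes, LOC_Os11g04730 had 62.3%, 55.0%, 53.0% and 62.3%, and LOC_Os04g41040 had 68.9%, 65.7%, 67.8% and 70.2%. The MATH gene LOC_Os12g40520 leaned to the father, with 1.85%, 31.0%, 25.5% and 29.8% in the same order. Of the BAH genes, LOC_Os02g50850 had 29.6%, 45.1%, 45.6% and 54.0%, and LOC_Os02g50840 had 66.1%, 66.7%, 66.9% and 78.0%. The DHHC genes LOC_Os01g70100 and LOC_Os08g42370 had 53.4% to 72.9% and 58.7% to 76.4% over the crosses. The SWI/SNF subfamily B gene LOC_Os02g49190 had 56.7% to 79.8%, and the ankyrin repeat-rich gene LOC_Os02g54860 had 61.9% to 71.5%.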
